A study of Ovis aries with 3 samples.

Results

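Exons that belonged to noncoding transcripts alone were examined in the intestinal mucosa of the sheep. In the RefSeq naming used by the files, a transcript whose identifier starts with XR_ is a predicted noncoding RNA, XM_ marks a predicted messenger RNA and NM_ a messenger RNA with supporting evidence. An exon was called XR-only if at least 1 XR_ transcript listed it and no XM_ or NM_ transcript held an exon at that start and end with those reads in all 3 libraries. Each such exon was counted once. There were 29884 XR-only exons among 314983 distinct exons, or 9.49%, after 4 transcripts with 9 such exons had been left out, and 281094 exons belonged to XM_ transcripts. XR-only exons were found in 13924 of the 14246 XR_ transcripts of the files.

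The study compared the transcriptomes of the duodenum, the cecum and the proximal colon of small-tailed Han sheep, a Chinese breed. It also used published duodenum, cecum and colon data of Texel sheep and kept the transcripts called in both breeds. The Texel data were not used here. Mucosal epithelial tissue of 3 healthy small-tailed Han ewes under 1 year of age was used, all raised alike and untreated, and the RNA was pooled into 1 library per region. The 3 libraries therefore have no replicates. Each interval and each false discovery rate (FDR) given here covers the sampling of reads of single pooled libraries, not the differences between animals. Behind the deposited values stood read totals of 50832279 (duodenum), 46311533 (cecum) and 53827214 (colon). Of the epithelial markers, EPCAM, an adhesion molecule of epithelial cells, had an RPKM (reads per exon length and read total) of 582, 550 and 596 in that order, so the labelled cell type was present in each library. The mucosa also held other cells, as described with the region differences.

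Long noncoding RNAs are transcribed and spliced much like messenger RNAs but have no recognised protein product. Many are made at low levels and in few cell types, and some act on chromatin or on neighbouring genes while for most no function is known. A second kind of noncoding record is an alternative transcript of a protein-coding gene whose reading frame is broken, for example by a retained intron, and a further kind is the transcribed copy of a gene, such as the many copies of ribosomal protein genes.

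The XR-only exons held both kinds of record. Transcripts that listed the same exon were joined into loci. A locus without any XM_ or NM_ transcript is called a noncoding locus and one with such a transcript a coding locus. The name rests on the shared exons alone. Some noncoding loci carry the symbol of a gene that RefSeq calls protein-coding, such as POLD3, PLA2G12A and NAIF1. Noncoding loci numbered 7701 and held 24256 of the XR-only exons (81.2%). The remaining 5628 lay in 1509 coding loci, where 3611 overlapped a coding exon of their locus in part and 2017 did not. In addition, 16587 exons of XR_ transcripts were shared with an XM_ or NM_ transcript and were no members. The files give starts and ends without chromosomes and without a named genome build, and all positions are those of the files.

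XR-only exons were detected at far lower levels than XM_ exons. The median RPKM over all XR-only exons was 0.15 (duodenum), 0.144 (cecum) and 0.168 (colon). For XM_ exons the medians were 5.29, 5.65 and 5.52. Taking for each exon the region where it was highest, the median was 0.345 for XR-only exons and 7.71 for XM_ exons. An RPKM of 1 or more was reached somewhere by 9633 XR-only exons (32.2%) and by 78.1% of the XM_ exons, and an RPKM of at least 10 by 9.22% and 44.4%. Few members were abundant, with 293 (0.980%) at an RPKM of at least 100, against 4.72% of the XM_ exons.

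The low level belonged above all to the noncoding loci. Their XR-only exons had a median of 0.262 in the highest region, and 25.8% reached an RPKM of 1. XR-only exons of coding loci that overlapped no coding exon had a median of 0.683 and 42.8% at an RPKM of 1 or more. Those that overlapped a coding exon of their locus had a median of 3.605 and 69.5%, nearest to the XM_ exons. Where exons overlap, reads of the coding transcripts can be counted on both, so the last group is not a level of noncoding RNA alone.

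**Figure D1:**
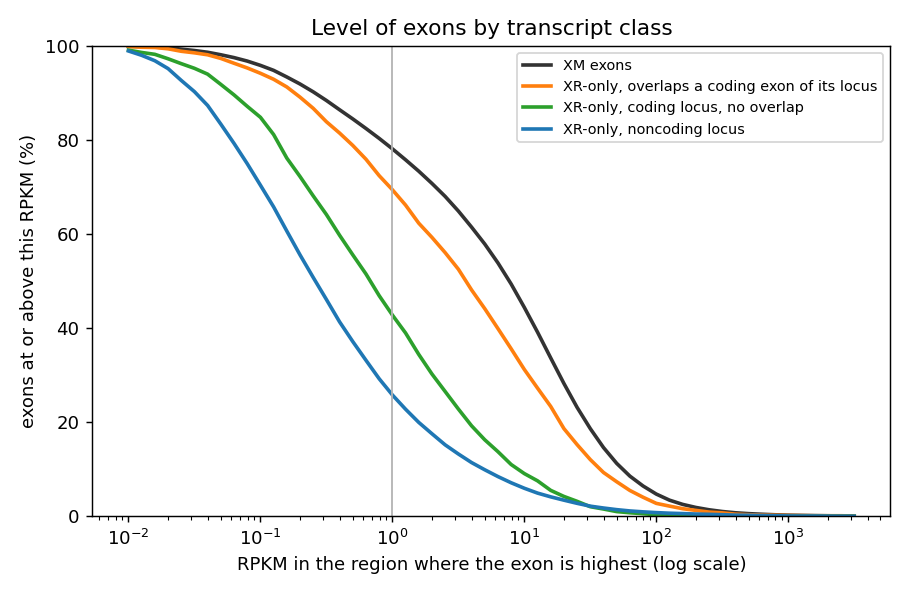
Percent of exons (vertical axis) at or above each RPKM in the region where the exon was highest (horizontal axis, log scale), for XM_ exons and 3 groups of XR-only exons. At an RPKM of 1, marked by the grey line, 78.1% of the XM_ exons, 69.5% of the overlapping, 42.8% of the non-overlapping and 25.8% of the noncoding-locus exons remain.

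The 2 classes differed in length, and the level differed within each class of length. The median length was 492 bases for XR-only and 154 bases for XM_ exons. Under 100 bases the median highest RPKM was 2.07 for XR-only and 14.9 for XM_ exons, and from 100 to under 300 bases it was 0.766 and 9.79. From 300 to under 1000 bases it was 0.232 and 2.49, and at 1000 bases or more 0.088 and 1.20. XR-only exons were thus lower than XM_ exons in all 4 classes of length.

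Summed over distinct exons, 4.38% of the reads on exons fell on XR-only exons in the duodenum, against 4.40% in the cecum and 4.14% in the colon, where a read on overlapping exons counts for each of them. These reads were gathered on few exons. Taking the same part of each class, the 0.1% of XR-only exons with the most reads (30 exons) held 25.02%, 24.8% and 23.6% of the XR-only reads of the duodenum, cecum and colon. For XM_ exons (282 exons) the corresponding shares were 14.4%, 12.9% and 18.3%.

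The most abundant exons were taken as the 5 highest by RPKM among the exons with the most reads of each locus. Exon 1 of XR_001025710.1, in a coding locus, is 11 bases long and overlaps a coding exon, and its RPKM was 4148 for the duodenum, 5042 for cecum and 4726 for colon. An exon of 11 bases is shorter than a read. Exon 5 of XR_001038828.1 belongs to the locus of RPL3, a protein of the large ribosomal subunit, and had an RPKM of 2329, 2570 and 2258 over its 148 bases (positions 214728825 to 214728972). Ribosomal protein genes have near-identical copies, and reads of such copies may be split among them.

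Exon 1 of XR_001023915.1, 255 bases and the only listed exon of its transcript, reached an RPKM of 2243, 2591 and 2224 in duodenum, cecum and colon. Exon 1 of XR_001022455.1, 139 bases, had 2566, 2381 and 2122. No gene name was paired with either transcript. Both were abundant in every region and past the 2-fold threshold in none. The remaining exon of the 5, exon 2 of XR_001037857.1, is 13 bases long, and its reads numbered 211.91 in duodenum, 1721.91 in cecum and 518.18 in colon. It was thus highest in the cecum, with a log2 ratio of 3.16 (95% interval 2.95 to 3.37) over the duodenum. Its neighbour in the transcript, XR_001037857.1 exon 1 of 931 bases, had 185.2, 1299.62 and 436.29 reads and the same order of regions. In every region an overlapping coding exon differed from this neighbour by under 2% of the neighbour's highest read count.

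Some exons that were not the most read of their locus were higher still and were chosen after their values had been seen. In the duodenum XR_001033317.1 exon 3, of 5 bases, had an RPKM of 4883, XR_001031432.1 exon 3, of 49 bases, had 4524 and XR_001038828.1 exon 3, of 96 bases in the RPL3 locus, had 3165.

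Of the 293 exons at an RPKM of 100 or more, 45 were under 30 bases and 137 under 100 bases, while 700 of all XR-only exons were under 30 bases. A coding exon of the locus was overlapped by 99 of the 293. Transcripts listed with a single exon held 45 of them. Of the 293, 57 (19.5%) were called different between regions in at least 1 comparison by the test described with the region differences. The background was 20.4% of all exons tested, whatever their level. At an RPKM of 100 or more, XR-only exons were called less often than XM_ exons against the duodenum. It was 15.0% and 24.0% in the cecum and 15.4% and 24.0% in the colon. Between cecum and colon it was 7.17% and 6.02%.

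Abundant XR-only exons were more often covered in part than XM_ exons. The deposited files give the percent of the bases of each exon that reads cover. Among exons with 1000 or more reads in a region, under 90% of the exon was covered, in the region with the highest RPKM, for 105 of 517 XR-only exons (20.3%) and for 3.49% of the XM_ exons. For XR-only exons of transcripts listed with a single exon it was 34 of 90 (37.8%). At 100 to under 300 reads the shares were 18.7% for XR-only and 5.05% for XM_ exons, so the gap was not confined to the most abundant exons.

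Reads were found in fewer regions for XR-only than for XM_ exons. All 3 regions had reads for 16150 XR-only exons (54.0%) and for 82.7% of the XM_ exons. A single region had reads for 7927 XR-only exons (26.5%) and 8.91% of the XM_ exons. Of these 7927, 2740 were seen in the duodenum only, 2257 in the cecum only and 2930 in the colon only. Their median was 2 reads, and 50 of them had at least 30 reads. A count of 0 still allows up to 3 reads, which is 5.90e-06% of the read total in duodenum, 6.48e-06% in cecum and 5.57e-06% in colon by counting error alone.

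At equal numbers of reads the breadth was close in the 2 classes. With under 10 reads in the region with the most, 24.3% of the XR-only and 30.2% of the XM_ exons had reads in all 3 regions. With 10 to under 30 reads it was 85.8% and 89.1%, and with 30 to under 100 reads 96.9% and 98.2%. From 100 reads on, both classes lay at 98.3% or more. The difference in breadth was therefore much smaller within a class of reads than over all exons. The median of the reads in the region with the most was 7.1 for XR-only and 67.5 for XM_ exons.

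**Figure D2:**
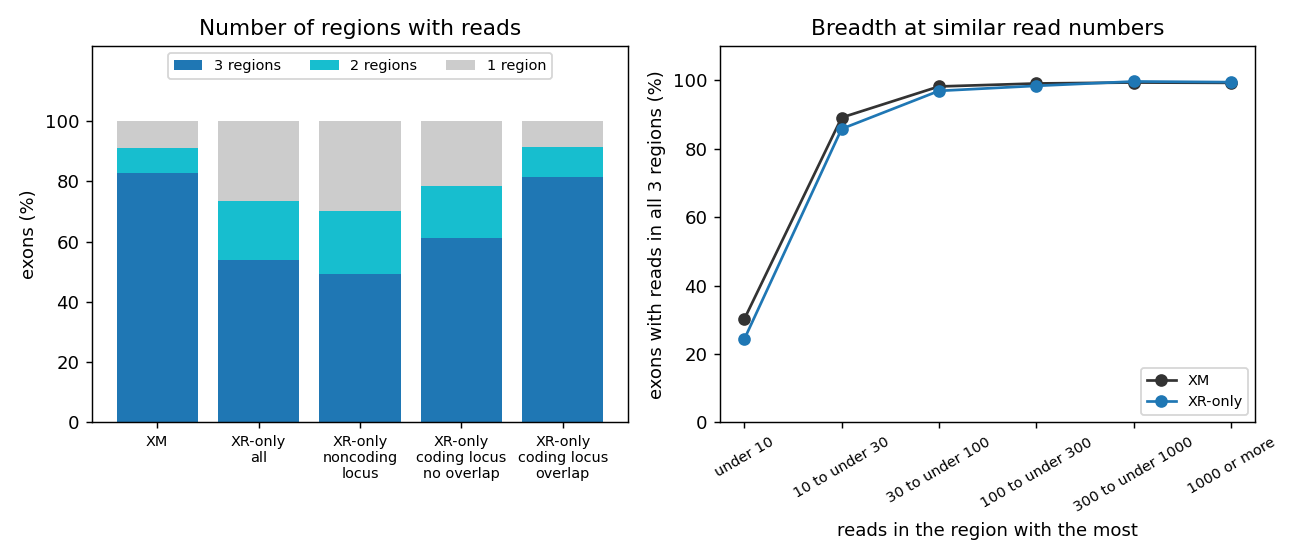
Left, percent of exons with reads in 3, 2 or 1 regions for XM_ exons, all XR-only exons and their 3 groups. Right, percent of exons with reads in all 3 regions by the reads in the region with the most, where the XR-only line runs from 24.3% to 99.4% and the XM_ line from 30.2% to 99.2%.

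Taking 1 exon per locus, those seen in 1 region with the most reads all came from the duodenum. Exon 1 of XR_001024109.1, 3766 bases at 56957668 to 56961433, had 447.43 reads in the duodenum and none in the cecum and colon, where up to 3 reads are allowed by the count of 0. With the cecum and the colon set to 3 reads, it was 136-fold higher in the duodenum than in the cecum and 158-fold higher than in the colon. Exon 1 of XR_001043367.1 had 260.25 reads in the duodenum and exon 2 of XR_001026894.1 had 219.04, with none in the large intestine for either. Both end at position 16274916 and overlap by position, so they may share reads. None of the 3 transcripts was paired with a gene name.

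For the comparison of regions, reads of 2 libraries were compared with the Audic-Claverie test for exons that reached an RPKM of 1 somewhere. An exon was called when its RPKM differed at least 2-fold, with reads under 3 set to 3, at an FDR under 0.001 over the 232837 exons tested. The filter was passed by 9633 of the 29884 XR-only exons, and an exon absent from 2 regions could pass only through the region where it was present. In bulk tissue a lower level can mean fewer cells of a type or less RNA per cell, which cannot be told apart.

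Between the cecum and the duodenum, XR-only exons were called at a rate near that of all exons, with a smaller share on the cecum side. The test called 1231 XR-only exons (12.8%), against a background of 13.9% of all exons tested. On the cecum side were 591 (6.14%, background 8.37%) and on the duodenum side 640 (6.64%, background 5.55%). The cecum thus held 48.0% of the XR-only calls and 60.4% of the XM_ calls. By fold change alone, 2561 XR-only exons (26.6%) differed, against a background of 23.1%. The exon with the most reads of each locus was also taken alone. Of 2959 such exons, 265 (8.96%) were called on the cecum side and 219 (7.40%) on the duodenum side. The cecum then held 54.8% of the calls, still below the 60.4% of the XM_ calls. The XM_ exons were not reduced in this way.

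Between the colon and the duodenum, XR-only calls were likewise near the background, with slightly more on the colon side. There were 1350 XR-only exons called (14.0%, background 13.5%), of which 709 were on the colon side (7.36%, background 7.51%) and 641 on the duodenum side (6.65%, background 5.97%). By fold change alone it was 2622 exons (27.2%), against a background of 22%. The colon held 52.5% of the XR-only calls and 55.8% of the XM_ calls. With 1 exon per locus, 267 (9.02%) were called on the colon side and 226 (7.64%) on the duodenum side.

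Between the cecum and the colon, XR-only exons were called more often than the background, and the excess lay on the colon side. The test called 580 exons (6.02%), against a background of 4.79%. The cecum was higher for 201 (2.09%, background 2.33%) and the colon for 379 (3.93%, background 2.46%). The colon thus held 65.3% of the XR-only calls and 50.6% of the XM_ calls. By fold change alone it was 1888 exons (19.6%), against a background of 13.1%. Counting 1 exon per locus, 118 of 2959 (3.99%) were higher in the colon and 94 (3.18%) in the cecum, and the colon held 55.7% of the calls. These exons were picked for the most reads of their locus and the background exons were not, so the 2 rates are not alike. The rates over all tested XR-only exons depend on the filter at an RPKM of 1. Without it 2.72% of the XR-only and 3.77% of the XM_ exons were called, so the order of the classes turned, and the colon side still held 69.9% of the XR-only calls. Without the filter XR-only exons were also below XM_ exons against the duodenum, with 5.62% and 11.1% in the cecum and 6.32% and 10.8% in the colon.

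The number of reads behind an exon limits what the test can call, so calls were also compared at similar reads. With 30 to under 100 reads in the region with the most, 9.28% of the XR-only and 6.13% of the XM_ exons were called between cecum and colon. With 100 to under 300 reads it was 8.65% and 5.11%, and with 300 to under 1000 reads 7.38% and 4.0%. At 1000 reads or more the order turned, with 4.84% and 5.25%. The colon side carried the surplus in the middle classes, for example 5.83% of the XR-only and 2.76% of the XM_ exons at 100 to under 300 reads, whereas the cecum side had 2.82% and 2.36%.

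At similar reads XR-only exons were also called more often than XM_ exons against the duodenum, up to 1000 reads. In the cecum it was 17.6% of the XR-only and 15.1% of the XM_ exons at 30 to under 100 reads, 18.5% and 15.7% at 100 to under 300 and 17.5% and 15.8% at 300 to under 1000. In the colon it was 19.1% and 14.0%, 19.2% and 15.0%, and 19.7% and 15.6% in the same classes. At 1000 reads or more XR-only exons were again lower, with 16.6% and 21.8% in the cecum and 18.0% and 22.0% in the colon, and at 10 to under 30 reads the cecum had 7.35% and 7.46%. By length the order also changed. Under 100 bases it was 6.12% and 11.3% in the cecum and 6.86% and 11.4% in the colon. At 1000 bases or more it was 21.9% and 18.2%, and 22.5% and 16.4%. Between cecum and colon it was 3.23% and 4.17% under 100 bases and 8.90% and 5.61% at 1000 or more. By level, XR-only exons in the cecum were lower at an RPKM of 30 to 100 (13.4% and 15.5%) and higher at 3 to 10 (14.0% and 13.1%).

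**Figure D3:**
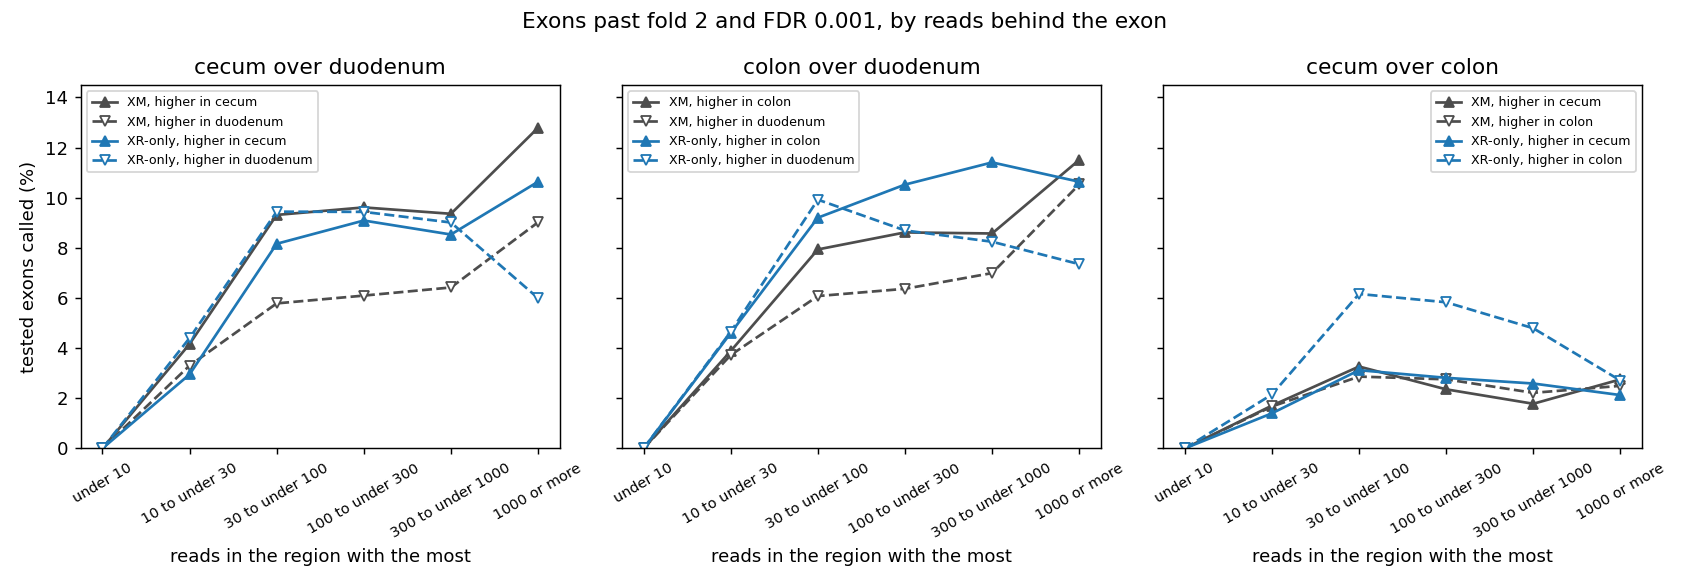
Percent of tested exons called (vertical axis) by the reads in the region with the most (horizontal axis) for the 3 comparisons, with XR-only exons in blue and XM_ exons in grey, filled triangles for the first-named region and open ones for the second. In the cecum over colon panel the XR-only line for the colon reaches 6.16% at 30 to under 100 reads, where the other 3 lines lie between 2.87% and 3.27%.

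Both kinds of loci took part. In noncoding loci, 280 XR-only exons (4.47%) were higher in the colon and 140 (2.24%) in the cecum among 6259 tested. Among exons overlapping a coding exon of the locus it was 83 (3.31%) and 42 (1.67%) of 2510, and among non-overlapping exons of coding loci 16 (1.85%) and 19 (2.20%) of 864. The last group was thus the exception to the colon side.

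Of the tested XR-only exons, 37.2% were highest in duodenum, 30.4% in cecum and 32.3% in colon. For XM_ exons it was 36.0%, 35.0% and 29.0%. The tissue index tau, which is 0 for equal levels and 1 for an exon seen in a single region, had a median of 0.385 for XR-only and 0.293 for XM_ exons. It depended on reads, falling from 0.735 under 10 reads to 0.191 at 1000 or more for XR-only exons, and from 0.686 to 0.225 for XM_ exons. In the class of 100 to under 300 reads the medians were 0.269 and 0.239.

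Calls in several comparisons were combined into patterns. Higher in the duodenum than in both other regions were 427 XR-only exons (4.43%, background 3.8%), and lower than in both 341 (3.54%, background 4.31%). Above both others in the colon were 225 (2.34%, background 1.45%), and above both in the cecum 88 (0.914%, background 1.2%). Called in at least 1 comparison were 20.6% of the XR-only and 20.3% of the XM_ exons.

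Markers of several cell types differed between the libraries. Of 20 epithelial markers 13 were paired, and their summed RPKM was 19445 in duodenum, 18458 in cecum and 159689 in colon. The colon sum was mostly TFF2, a trefoil peptide of mucous glands, at 1470, 2060 and 127220. Of the goblet cell markers, SPINK4 (844, 4905 and 21237) and AGR2 (1175, 1459 and 4624) were also highest in the colon. TFF3 was nearly level at 3117, 3357 and 3499. CHGA of enteroendocrine cells was highest in the duodenum (497, 130 and 145) and OLFM4 of crypts in the cecum (1201, 2938 and 482). The absorptive markers FABP1 (7692, 967 and 414), FABP2 (1313, 0.503 and 0.427) and APOA4 (308, 0.197 and 0.272) were highest in the duodenum. AQP8, also absorptive, was highest in the colon (2.68, 8.03 and 16.2). Of 7 markers of smooth muscle, stroma and endothelium, 5 could be paired with a transcript, and their summed RPKM was 754 in duodenum, 3709 in cecum and 2457 in colon. Of 4 immune markers 2 were paired, with summed RPKM of 6737, 3727 and 720, nearly all of it JCHAIN, the joining chain of secreted antibodies. No paired marker was at 0 in a library. SPINK4, AGR2 and TFF2 were thus highest in the colon, the muscle and stroma markers in the cecum and the immune markers in the duodenum. The part of these cells in the calls of XR-only exons was not tested.

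Within noncoding loci the called exons moved together. Of 2487 noncoding loci with a tested exon, 481 (19.3%) had a call between cecum and duodenum. Between colon and duodenum it was 491 (19.7%), and between cecum and colon 254 (10.2%). A locus counted with 1 called exon, so these shares cannot be set beside the backgrounds per exon. No share per locus was formed for XM_ exons. Where 2 or more exons of a locus were called, they had 1 direction in 173 of 175 loci, 192 of 197 loci and 75 of 75 loci. Exons of 1 transcript, and the overlapping exons of several transcripts of a locus, share their source and their reads, and they are not independent.

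The exons with the largest ratios toward the large intestine were nearly absent from the duodenum. Exon 1 of XR_001039954.1, 4577 bases at 68863954 to 68868530, is the only listed exon of a transcript paired with HOXA9, a homeobox transcription factor that patterns the posterior body. It had 0 reads in duodenum, 1932.99 in cecum and 2801.37 in colon, which is an RPKM of 0, 9.12 and 11.4. The cecum was at least 707-fold and the colon at least 882-fold above the duodenum, and the cecum and the colon were within 2-fold of each other.

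HOXA10, the neighbouring homeobox gene, was paired with XR_001039951.1 and XR_001039952.1, which lie just before that exon by the positions in the files. Their exons were taken after the values had been seen. All 5 XR-only exons had 0 reads in the duodenum. Exon 2 of XR_001039952.1, 141 bases, had 198.46 reads in the cecum and 263.92 in the colon, at least 72.4-fold and at least 83.1-fold above the duodenum. Exon 1 of XR_001039951.1, 894 bases, had 56.67 and 159.76 reads and exon 2 had 52.5 and 131.1, and both were called higher in the colon than in the cecum. The last exons of the 2 transcripts start at the same position and may share reads. Strand was not stated for the counting, so reads of an overlapping gene on the other strand could not be told apart.

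Exon 6 of XR_001025421.1, 120 bases, had 2 reads in duodenum, 1792.49 in cecum and 1718 in colon, an RPKM of 0.328, 323 and 266. With the reads as listed, its log2 ratio over the duodenum was 9.94 in the cecum (95% interval 8.09 to 12.99) and 9.66 in the colon (7.81 to 12.71), and with the duodenum set to 3 reads, as for the calls, it was 9.36 and 9.08. This exon overlaps exon 5 of XM_012172914.1 by position, a coding transcript of LOC443162. In every region the reads of the 2 exons differed by under 2% of the XR-only exon's highest read count. In the duodenum this limit exceeded the reads of the exon, so likeness there was not tested. The value therefore cannot be assigned to a noncoding RNA alone. Of its 7 XR-only exons, against the duodenum, 4 were called on the cecum side and 5 on the colon side.

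Exon 2 of XR_001043348.1 (LOC101114032), 244 bases at 13906306 to 13906549, was the most abundant exon of this kind. It had 75.79 reads in duodenum, 19840.5 in cecum and 20470.3 in colon, an RPKM of 6.11, 1756 and 1559. The log2 ratio over the duodenum was 8.16 (95% interval 7.84 to 8.51) in the cecum and 7.99 (7.67 to 8.34) in the colon. The other listed exon, XR_001043348.1 exon 1, had 43.5, 15896.4 and 17079.2 reads, so both exons of the transcript had the same order.

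Exon 4 of XR_001031331.1 (LOC105609346), 1208 bases, had 0 reads in duodenum, 364.67 in cecum and 1144.28 in colon. Here the colon was also above the cecum, with a log2 ratio of cecum to colon of -1.43 (95% interval -1.61 to -1.26). Its locus has 5 transcripts and 15 tested XR-only exons. Against the duodenum, all 15 were called on the colon side and 10 on the cecum side. Between cecum and colon, 14 were called on the colon side. This locus held more of the 379 colon-over-cecum calls than any other.

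**Figure D4:**
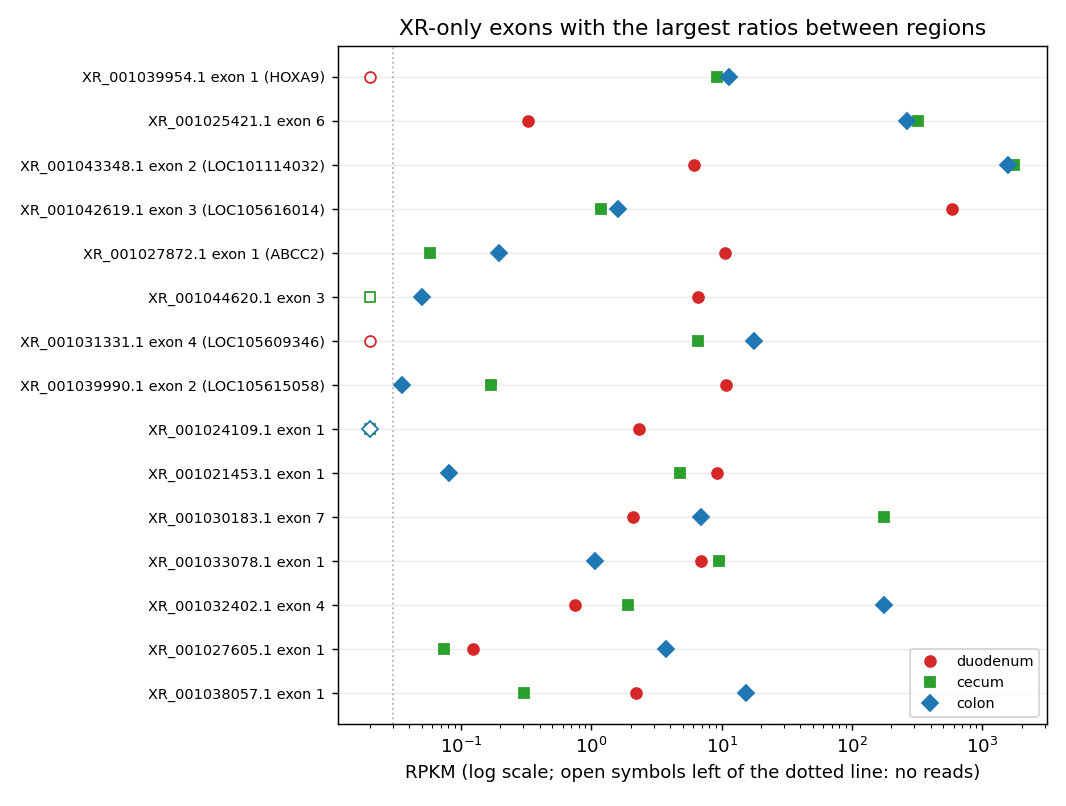
RPKM in the duodenum (red circles), cecum (green squares) and colon (blue diamonds), on a log scale, of the XR-only exons with the largest called ratios, 1 row per exon with its paired gene name where there is one. Open symbols left of the dotted line stand for 0 reads. The first 3 rows have the duodenum far to the left, at 0, 0.328 and 6.11, and the next 3 have it far to the right.

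In the opposite direction, some exons had nearly all of their reads in the duodenum. Exon 3 of XR_001042619.1 (LOC105616014), 130 bases at 29034888 to 29035017, had 3836.64 reads in duodenum, 7.16 in cecum and 11.21 in colon, an RPKM of 581, 1.19 and 1.60. The cecum was lower by a log2 ratio of -8.96 (95% interval -10.3 to -7.92) and the colon by -8.53 (-9.53 to -7.69). The other exons were low in every region, with 24.19 reads in the duodenum for XR_001042619.1 exon 1 and 2.31 for XR_001042619.1 exon 2, so 1 of the 3 exons of this transcript carried nearly all of its reads.

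Exon 1 of XR_001027872.1 lies in the coding locus of ABCC2, an organic anion transporter of the apical membrane, and overlaps a coding exon there. It had 603.75 reads in duodenum, 3 in cecum and 11.71 in colon. The log2 ratio of cecum to duodenum was -7.52 (95% interval -9.80 to -5.97). Exon 3 of XR_001044620.1, in a coding locus without a paired name, had 494.16, 0 and 4.01 reads. In every region its reads differed from those of exon 3 of XM_012188860.1 by under 2% of its duodenum reads. In the cecum and colon this limit exceeded its reads, so likeness there was not tested. All 5 XR-only exons of that locus were called higher in the duodenum than in both other regions.

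Exon 2 of XR_001039990.1 (LOC105615058), 1068 bases, had 581.07 reads in duodenum, 8.38 in cecum and 2 in colon. It overlaps exon 21 of XM_012113135.1 by position, with reads that differed in every region by under 2% of its duodenum reads. In the cecum and colon this limit exceeded its reads, so likeness there was not tested. The coding transcript is paired with NPC1L1, the transporter for cholesterol uptake in the small intestine. For XR_001039990.1 exon 1, 1568 bases, no such coding exon was found, and it had 572.02, 4 and 10 reads. Both exons of this noncoding transcript were thus high in the duodenum, with and without a coding exon of like reads.

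Between the cecum and the colon the largest ratios were found in transcripts without a paired name. Exon 1 of XR_001021453.1 had 630.37 reads in duodenum, 300.72 in cecum and 5.95 in colon, so the colon alone was low. Reads covered 27.7%, 26.7% and 23.5% of its 1359 bases, so they lay on the smaller part of the exon. Exon 7 of XR_001030183.1, 349 bases, was high in the cecum alone, with 37.11, 2863 and 130.37 reads and full coverage in each region. Its log2 ratio of cecum to colon was 4.68 (95% interval 4.42 to 4.94). Exon 1 of XR_001033078.1 had 199.62, 250.61 and 32.59 reads, and 6 of the 7 XR-only exons of its locus were called below both other regions in the colon.

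On the colon side, exon 4 of XR_001032402.1, 137 bases at 232260034 to 232260170, had 5.19 reads in duodenum, 12.17 in cecum and 1292.21 in colon. The ratio of cecum to colon was -6.53 on the log2 scale (95% interval -7.49 to -5.72). None of the remaining exons had reads in the cecum, while in the colon XR_001032402.1 exon 1 had 555.59, XR_001032402.1 exon 2 had 192.31 and XR_001032402.1 exon 3 had 78.55, so all 4 exons were called above both other regions in the colon. Exon 1 of XR_001027605.1, 2617 bases, had 16.48, 9 and 525.74 reads, and exon 1 of XR_001038057.1, 481 bases, had 53.28, 6.8 and 398.09. In exon 4 of XR_001032402.1 and exon 1 of XR_001027605.1 and of XR_001038057.1, the colon stood alone above the other regions by 7.09-fold or more. Of the 3 XR-only exons of XR_001038057.1 only 1 was tested. Reads covered 54.47% of that exon in duodenum, 29.11% in cecum and 85.65% in colon.

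Several loci without such extreme exons had many called exons, and they were chosen after their values had been seen. The locus of XR_001021795.1 (LOC101105359) had 33 tested XR-only exons, of which 27 were called higher in the duodenum than in the colon and 23 higher than in the cecum. Of its exons, XR_001021795.1 exon 5 had 1032.5 reads in duodenum, 397.64 in cecum and 320.8 in colon. The locus of XR_001029794.1 (LOC105608433) had 10 tested exons, all called above both others in the duodenum, with a median RPKM of 16.4, 0.945 and 1.33. Exons of these loci belong to several overlapping transcripts and may share reads.

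On the colon side, the locus of XR_001022921.1 had 9 tested exons, all called higher in the colon than in the cecum and the duodenum. Their median RPKM was 0.022 in duodenum, 0 in cecum and 2.39 in colon. In the locus of XR_001038608.1 (LOC105613737), 8 of 11 tested exons were called higher in the colon than in the cecum, with a median RPKM of 1.75, 5.77 and 20.2. On the cecum side, the locus of XR_001029770.1 had 24 tested exons, 11 of them called higher in the cecum than in each of the other regions, with a median RPKM of 3.58, 12.3 and 5.62 over these 11. The 5 loci with the most calls held 12.1% of the colon-over-cecum and 13.4% of the cecum-over-colon calls, so most calls were spread over many loci, 215 and 153 in all.

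In coding loci an XR-only exon can be set beside the exons that its transcript shares with the messenger RNA. For 3637 exons the shared exons had a median RPKM of at least 1 in every region, and the ratio of the XR-only exon to that median was formed. Exons overlapping a coding exon (2479) had a median ratio of 0.516 in duodenum, 0.508 in cecum and 0.508 in colon. Exons without overlap (1158) had 0.078, 0.070 and 0.081. The ratio was under 0.1 for 54.5%, 57.9% and 54.0% of the latter, and 1 or more for 8.12%, 7.86% and 6.91%. The exons without overlap were thus mostly present at a small fraction of the level of the shared exons, in each region alike.

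**Figure D5:**
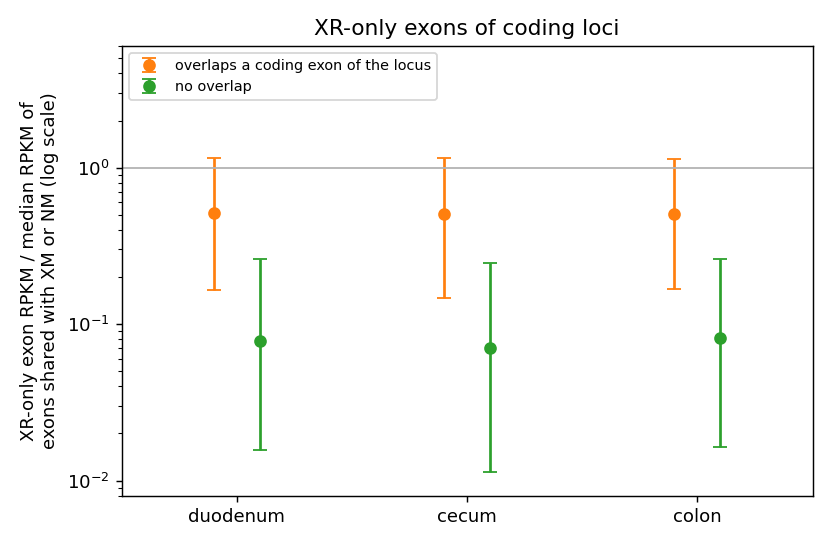
Ratio of the RPKM of an XR-only exon to the median RPKM of the exons its transcript shares with an XM_ or NM_ transcript (vertical axis, log scale) in the 3 regions. Points are medians and bars the quartiles over exons, for 2479 exons that overlap a coding exon and 1158 that do not. The medians lie near 0.51 and between 0.070 and 0.081.

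Among the non-overlapping exons with at least 30 reads, the change between regions was set beside that of the shared exons of the same transcript. For 438 exons the difference in log2 ratio had a median of -0.08 between cecum and duodenum, 0.01 between colon and duodenum and -0.07 between cecum and colon. It was 1 or more in size for 15.3%, 18.0% and 12.6% of the exons. Between cecum and colon, 38 exons moved toward the colon by 1 or more relative to the shared exons and 17 toward the cecum. Most of these exons therefore kept near the shared exons of their gene across regions.

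A few XR-only exons stood above the shared exons. Exon 1 of XR_173053.2, in the locus of the ribosomal protein gene RPL9, is 17 bases long and was 38.2, 35.1 and 43.6 times the level of the 2 exons shared. Exon 5 of XR_001038714.1, 362 bases, had an RPKM of 95.1 in duodenum, 53.0 in cecum and 54.9 in colon, and the 2 shared exons had 27.7, 2.27 and 3.88. Exon 2 of XR_001024440.1, 141 bases, was 16.1, 11.9 and 13.3 times the level of its single shared exon. All 3 overlap a coding exon of their locus, so reads of coding transcripts may be part of these values.

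Reads shared with coding exons also touched members outside coding loci. Of 7643 XR-only exons with at least 30 reads in a region, 779 (10.2%) overlapped by position a coding exon with like reads, and 201 of these lay in noncoding loci. Reads were taken as alike when they differed in every region by under 2% of the XR-only exon's highest count. Regions where an exon had few reads were thus hardly compared. Another XR-only exon with like reads was found for 821 (10.7%). Since the files name no chromosome, such a match rests on the positions and the reads together.

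The steadiest abundant exons were among these. Of 678 loci whose XR-only exon with the most reads had an RPKM of at least 10 in every region and no call, the smallest range was found for exon 1 of XR_001022434.1, with an RPKM of 17.6 in duodenum, 17.4 in cecum and 17.5 in colon. Exon 9 of XR_001039109.1 had 27.3, 26.8 and 26.8, and exon 2 of XR_001043906.1 had 12.3, 12.0 and 12.3. The last lies in a noncoding locus, but its reads matched exon 1 of XM_012119131.1, paired with CXADR, an adhesion protein of epithelial junctions. All 3 exons had a coding exon whose reads differed by under 2% of the XR-only exon's highest count, so these flat profiles are equally those of the coding exons.

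Gene names were paired with few members. A symbol was found for 312 of the 13924 transcripts, and 247 of these came from the RefSeq gene table of assembly ARS-UI_Ramb_v3.0, used here for names only. That table calls 188 of the transcripts lncRNA and 58 protein-coding. The 456 XR-only exons of the lncRNA genes had a median RPKM of 0.934 in the highest region, and 220 were tested. Between cecum and duodenum 20 (9.09%) were called on the cecum side and 11 (5.0%) on the duodenum side, beside backgrounds of 8.37% and 5.55%. Between colon and duodenum 17 (7.73%) and 15 (6.82%) were called, beside 7.51% and 5.97%, and between cecum and colon 3 (1.36%) and 7 (3.18%), beside 2.33% and 2.46%. These shares differed from the background by a few exons. The 155 exons of transcripts whose gene is now called protein-coding had a median of 8.35, and 136 were tested. The paired transcripts were thus higher than XR-only exons in general in both classes.

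GTL2, the sheep name of the imprinted noncoding gene MEG3, was among the paired genes and was chosen after its values had been seen. Exon 4 of XR_001022322.1, 5374 bases at 64443963 to 64449336, had 828.04 reads in duodenum, 1556.81 in cecum and 1515.36 in colon, an RPKM of 3.03, 6.26 and 5.24. It was called in the cecum at a log2 ratio of 1.05 (95% interval 0.92 to 1.17), and in the colon its ratio of 0.79 missed the 2-fold threshold. Of the 5 GTL2 exons, all were higher in both parts of the large intestine, while 3 were called in the cecum and 2 in the colon. DCN, a stromal proteoglycan, had an RPKM of 88.3, 261 and 104 in the same libraries. The part of stroma in the GTL2 values was not tested.

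LOC101112291, an lncRNA gene in the RefSeq table, had abundant reads in every region and was also chosen after its values had been seen. Exon 6 of XR_173470.2, 6270 bases at 62589248 to 62595517, had 28675.2 reads in duodenum, 20405.5 in cecum and 32925.6 in colon, an RPKM of 89.97, 70.3 and 97.6. The cecum was lower than the duodenum by a log2 ratio of -0.36 (95% interval -0.38 to -0.33). None of its 16 XR-only exons was called in any comparison, and all 16 had their lowest level in the cecum.

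XR-only exons were also taken from 69 genes with a name of their own, 1 exon per gene with the most reads, of which 65 were tested. The exons behind the backgrounds were not picked by their reads in this way. In the comparison of cecum and duodenum, 6 (9.23%) were called on the cecum side and 2 (3.08%) on the duodenum side, beside backgrounds of 8.37% and 5.55%. In colon and duodenum it was 6 (9.23%) and 3 (4.62%), beside 7.51% and 5.97%, and in cecum and colon 1 (1.54%) and 3 (4.62%), beside 2.33% and 2.46%, so the shares lay on either side of the background by a few exons. Beside the HOXA genes and GTL2, the exon of FRYL (exon 2 of XR_001041147.1) had 177.36 reads in duodenum, 599.63 in cecum and 1029.12 in colon. The exon of ILDR1, a protein of the contacts between epithelial cells (exon 1 of XR_001020748.1), had 157.32, 560.65 and 1631.3. The exon of AFMID, an enzyme of tryptophan breakdown (exon 2 of XR_001025799.1), had 333.88, 26.2 and 38.59, so it was high in the duodenum. All 3 overlap a coding exon of their gene, and reads of the messenger RNA can be counted in their values.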

How the data were processed

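The labels place 1 pooled library in each of the 3 regions, duodenum, cecum and colon, of small-tailed Han sheep, made with an Illumina TruSeq RNA kit. For each library the authors deposited an estimated count of reads per exon, mostly not a whole number, with the RPKM derived from it, the exon length and the read total in the header. The deposited coverage, the percent of an exon's bases under reads, was used too. A file lists an exon from 1 read on, and an exon not listed was taken as 0 reads. Per the labels, the submitters' processing notes name BWA and Bowtie 0.12.2, whereas the study's methods describe Bowtie2 and RSEM, and the genome build of the exon positions is not given in the sources used here.

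Exon rows alike in start, end and the reads of every region were joined into 1 distinct exon, and transcripts sharing such an exon into 1 locus. Counts were rounded to whole numbers for the Audic-Claverie test (both sides), fitted over all exons reaching an RPKM of 1 anywhere and adjusted after Benjamini and Hochberg. Calls needed a fold change of at least 2, with reads under 3 set to 3, and an FDR under 0.001, the thresholds of the study. The study applied its thresholds to each breed separately and kept the overlap. Log2 ratios have exact 95% Clopper-Pearson intervals for the reads alone. RNA-seq reads without molecular identifiers are not independent molecules, so intervals and floors cover counting error only. The test was tested on simulated data. The scripts ran on Python 3.11.15 (numpy 2.4.6, scipy 1.17.1, pandas 2.3.3), and plots on matplotlib 3.10.9.

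Members and lists were chosen with earlier results of these data known. Named, taking per locus the XR-only exon with the most reads, were the 5 highest by RPKM, for each comparison and direction the 3 called exons with the largest ratio and at least 100 reads, the 3 with the most reads among those seen in 1 region, the 3 steadiest at an RPKM of at least 10 and the 3 highest relative to shared exons. Of a list of 40 known noncoding RNAs, 0 were paired with a transcript by symbol, and of 31 cell type markers 20 were. Alternatives covered the filter, fold, scaling, pseudocount, exon identity, overlap, exon length and 1 exon per locus. No reference genome was used and no sequence is printed.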

Additional observations from a re-analysis of the deposited data

How the results depend on the processing

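XR-only counts stayed within 1.5 times of the reported ones for 34 of 48 recomputed values, and the 18 log2 ratios of the named exons kept their direction and their call in 85 of 90. The other 5 were not tested at an RPKM of at least 10, which those exons did not reach. The 18 ratios were picked as the largest called ones, and a changed filter or fold threshold leaves a ratio as it is. Their agreement was thus largely fixed in advance. A pseudocount of 1 RPKM reduced 10 of the 18 ratios by over 1.5 times, for example from 9.47 to 3.34 for XR_001039954.1 exon 1 (cecum over duodenum) and from -7.30 to -1.74 for XR_001024109.1 exon 1 (colon over duodenum). The calls between cecum and duodenum, colon and duodenum, and cecum and colon were 1231, 1350 and 580 of 9633. That was 12.8%, 14.0% and 6.02%, against 13.9%, 13.4% and 4.69% of the XM_ exons. At an RPKM of at least 10 they were 410, 442 and 180 of 2754 (14.9%, 16.0% and 6.54%), against 15.9%, 15.4% and 5.02%. At a fold change of at least 4 they were 598, 717 and 254 (6.21%, 7.44% and 2.64%), against 5.65%, 5.77% and 1.76%. By fold change alone they were 2561, 2622 and 1888 (26.6%, 27.2% and 19.6%), against 22.9%, 21.8% and 12.8%. With 1 exon per locus they were 484, 493 and 212 of 2959 (16.4%, 16.7% and 7.16%), with no like share for XM_ exons. Each of these settings admits fewer exons or drops or tightens a criterion by construction. Of 9633 exons at an RPKM of 1 or more, 6259 lay in loci without XM_ or NM_ and 5925 reached 1 in every region. The colon held more of the cecum and colon calls than the cecum in every setting, from 55.7% to 69.9%. Calls of XM_ exons also leaned to the colon in some settings. The cecum held 40.2% of them at a fold change of at least 4, against 30.3% for XR-only calls. With median-ratio rescaling it was 43.6% and 30.4%, and by fold change alone 50.8% and 43.2%. Between cecum and duodenum the side with more calls changed, since the cecum had 215 of 410 calls at an RPKM of at least 10 and 265 of 484 with 1 exon per locus, against 591 of 1231. Leaving out exons with the reads of an overlapping coding exon, chosen after seeing the data, gave 1117, 1223 and 535 calls of 8909 (12.5%, 13.7% and 6.01%).

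No paired analysis was possible because each region is 1 pooled library without replicates, and no replicate can be left out. No XR-only or XM_ exon with under 10 reads was called in any comparison. Exons of 1 locus and overlapping exons share reads and are not independent. The kit and the counting give no stated strand, so antisense genes cannot be told apart, and near-identical gene copies are uncertain.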
